A study of Bos taurus with 60 samples.

Results

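bta-miR-221 and bta-miR-222 are a pair of small regulatory RNAs measured here in the liver of beef cattle, and they were taken by name as 2 of the 1030 known bovine miRNAs in the count files, each read from 1 precursor, with their counts used in all 60 steers. The steers were castrated males of 3 populations, purebred Angus, purebred Charolais and the crossbred Kinsella Composite (KC), with 20 steers and 20 libraries in each, 1 library per animal. In each breed 6 steers were labelled low-RFI, 6 high-RFI and 8 carried no RFI group, where residual feed intake (RFI) is the feed an animal eats beyond what its size and growth call for, so that low-RFI animals are the more feed-efficient ones. All steers shared a finishing diet of barley grain, barley silage and rumensin pellets, and none was otherwise treated. The methods state that the 12 steers of a breed with an RFI group were picked both for extreme RFI and for miRNA profiles resembling those of the other animals, that the KC herd descends from several bull lines, and that mean age at slaughter differed between breeds, with Charolais the oldest and KC the youngest, so breed and age cannot be told apart. The p-values of the RFI comparisons below take no account of that picking. All 20 sequenced steers of a breed were taken from the highest and lowest ends of RFI. The 8 without an RFI group were thus also drawn from those ends. Many steers shared a sire.

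In mammals miR-221 and miR-222 come from neighbouring hairpins on the X chromosome and are thought to be cut from one primary transcript. They are known to repress CDKN1B, an inhibitor of cyclin-dependent kinases that holds cells out of division, and KIT, a receptor tyrosine kinase. The pair is known for its expression in endothelial and smooth muscle cells, for induction in activated hepatic stellate cells, the collagen-producing cells of the liver, and for high levels in liver tumours. In the RefSeq cattle gene table of assembly ARS-UCD2.0, MIR221 and MIR222 lay next to each other on chromosome X with 0 genes between them, inside the long non-coding RNA gene LOC132344329.

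The mature sequences, given in the study's list of known miRNAs from miRBase, are shown to let the common start and the partly differing remainder be seen. They are written 5′ to 3′ with the seed, bases 2 to 8, in capitals.

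bta-miR-221: aGCUACAUugucugcuggguuu
bta-miR-222: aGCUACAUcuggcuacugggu

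The first 8 bases of both were identical, and 10 of the 13 positions after them differed when the sequences were laid side by side without a gap. With gaps allowed, only 5 single-base changes separated the 2 sequences. Among the 588 mature sequences in that list the seed GCUACAU occurred in these 2 alone, and no other listed miRNA came within 1 mismatch of either.

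Both members were low-abundance miRNAs in every breed. miR-221 ranged from 22.3 to 75.3 CPM (counts per 1000000 reads assigned to known miRNAs, after TMM scaling over the 60 libraries) with a median of 44.9 and a mean of 45.4 ± 10.4 (SD, n = 60). miR-222 ranged from 17.4 to 45.2 CPM with a median of 29.2 and a mean of 29.3 ± 6.75 (SD, n = 60). By mean level miR-221 ranked 137 in Angus, 129 in Charolais and 132 in KC among the 1030 known miRNAs, and miR-222 ranked 162, 155 and 161. Behind these levels stood 80 to 418 reads of miR-221 and 41 to 231 reads of miR-222 per library, from library totals of 1930859 to 6759381 reads, and the 3-count floor of detection lay at 0.444 to 1.55 CPM. KC libraries were the deepest, with a median total of 5547018 reads against 3720336 in Angus. The coefficient of variation over the 60 steers was 22.9% for miR-221 and 23.0% for miR-222, whereas counting error alone would give 7.52% and 9.34%. Spread between steers beyond counting was 20.4% for miR-221 and 21.0% for miR-222 in the fit over 60 steers, close to the median of 22.5% over all tested miRNAs. The tissue was sampled in bulk, so a smaller number of cells carrying these miRNAs and less of them per cell cannot be told apart.

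**Figure D1:**
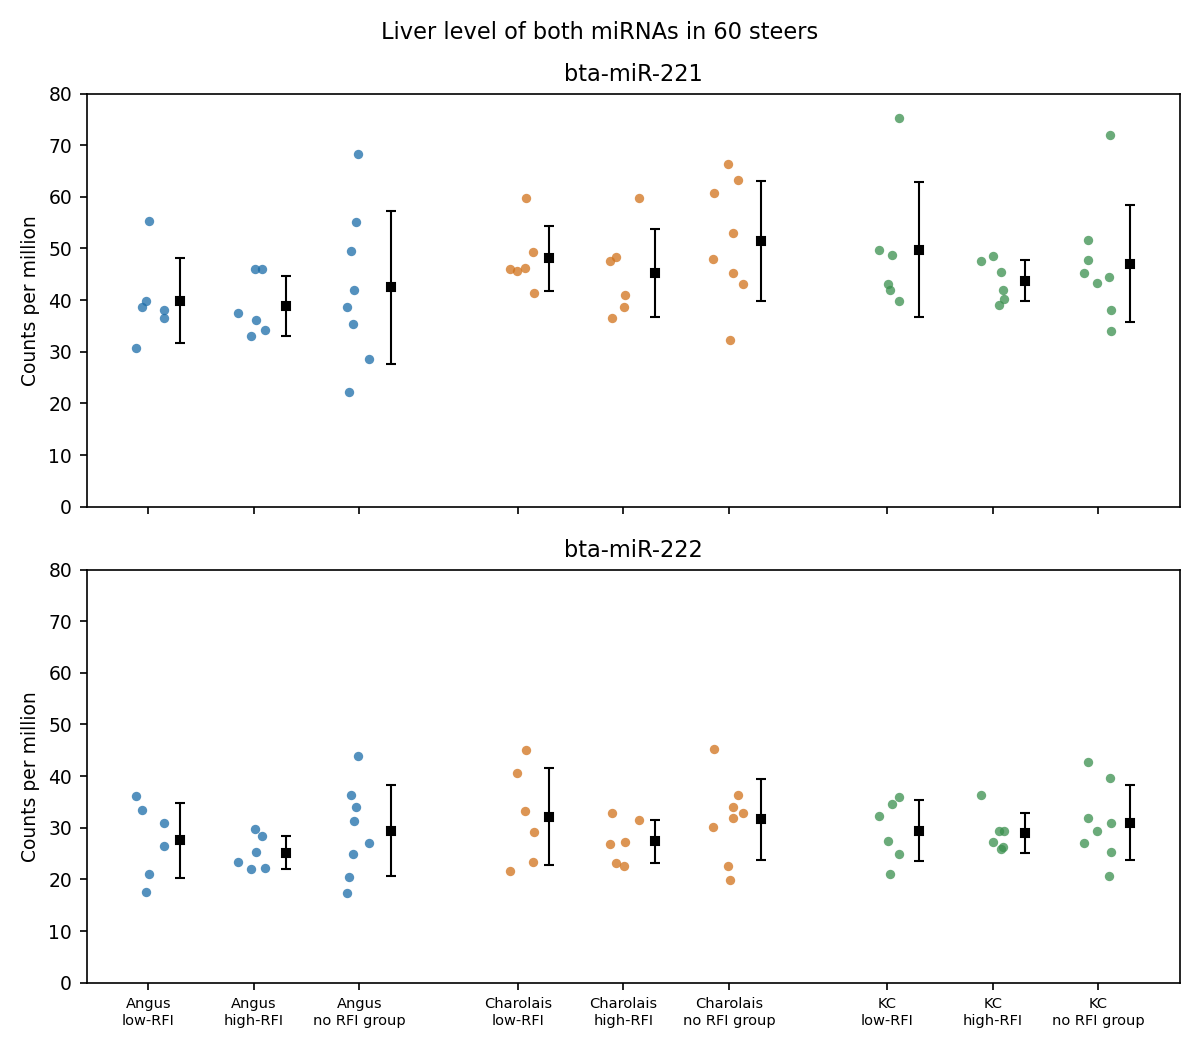
Level of bta-miR-221 (upper panel) and bta-miR-222 (lower panel) in CPM, 1 coloured point per steer, in the 9 groups of breed and RFI label, with the group mean ± SD as a black square and bar. Points of every group overlap those of the others, and the highest miR-221 value, 75.3, belongs to a low-RFI KC steer.

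The first question of the design was whether liver miRNAs differ between feed-efficient and inefficient steers of one breed. In Angus, miR-221 had a lowest, median and highest level of 30.8, 38.4 and 55.3 CPM in the 6 low-RFI steers and of 33.1, 36.8 and 46.0 CPM in the 6 high-RFI steers. miR-222 had 17.6, 28.7 and 36.2 CPM in low-RFI and 22, 24.3 and 29.7 CPM in high-RFI Angus. The low-RFI values reached both below and above the high-RFI values for each member. The log2 fold change of low-RFI against high-RFI was 0.07 (SE 0.14, 95% interval -0.24 to 0.37) for miR-221 and 0.17 (SE 0.16, interval -0.18 to 0.51) for miR-222, with adjusted p = 0.970 for both by edgeR's quasi-likelihood test with Benjamini-Hochberg adjustment. Neither member met the rule used for calls within a breed, an unadjusted p under 0.05 and a fold change above 1.5, which 9 of 373 tested miRNAs met (2.41%). Without low-RFI replicate 1, whose miR-221 level was the highest of its group, the miR-221 difference in Angus was -0.082.

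Of the 3 breeds, Charolais gave the largest estimate of the RFI difference in miR-222. The lowest, median and highest levels of this member were 21.6, 31.2 and 45.1 CPM in low-RFI and 22.6, 27.1 and 32.8 CPM in high-RFI steers. For miR-221 they were 41.4, 46.1 and 59.8 CPM in low-RFI and 36.6, 44.2 and 59.7 CPM in high-RFI steers. The groups overlapped for both members, although 4 of 6 low-RFI steers lay above the high-RFI median of miR-222 and 5 of 6 above that of miR-221. The log2 fold change was 0.26 (SE 0.19, interval -0.14 to 0.67) for miR-222 and 0.12 (SE 0.15, interval -0.20 to 0.43) for miR-221, with adjusted p = 0.987 for both (edgeR, quasi-likelihood), and neither member was among the 7 of 373 miRNAs called (1.88%). With sire as a block the miR-222 difference rose to 0.73 (SE 0.30, edgeR unadjusted p = 0.0307, adjusted p = 0.266, against a range of 0.266 to 0.999 over the alternatives of this result apart from leaving out a steer), which met the call rule, but so did 48 of 373 miRNAs in that fit (12.9%), and the miR-221 difference was 0.43. The blocked values rest on 1 low-RFI steer, since the larger sire family was the only one in Charolais with steers of both labels, and held 1 low-RFI steer, at 45.1 CPM of miR-222, and 4 high-RFI steers, at 23.2 to 32.8 CPM.

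In KC the larger estimate was that of miR-221. miR-221 had 39.8, 46.0 and 75.3 CPM in low-RFI and 39.1, 43.7 and 48.5 CPM in high-RFI steers as lowest, median and highest. miR-222 had 21.1, 29.9 and 36 CPM in low-RFI and 25.9, 28.2 and 36.3 CPM in high-RFI steers. The ranges overlapped again, and 3 of 6 low-RFI steers lay above the high-RFI median for each member. The log2 fold change was 0.22 (SE 0.14, interval -0.09 to 0.52) for miR-221 and 0.04 (SE 0.15, interval -0.27 to 0.36) for miR-222, with edgeR adjusted p of 0.966 and 0.995, and neither was among the 7 of 385 miRNAs called (1.82%). Without low-RFI replicate 5, the steer at 75.3 CPM, the miR-221 difference was 0.05. Of the leukocyte miRNAs described below, miR-223, a miRNA of neutrophils and other myeloid cells, was called higher in low-RFI KC at a log2 fold change of 0.69 (edgeR, unadjusted p = 0.00504, adjusted p = 0.646), the only one of 7 called. Its lowest, median and highest levels were 32.0, 36.9 and 56.6 CPM in low-RFI and 12.5, 28.3 and 34.9 CPM in high-RFI steers. The 7 estimates ran from 0.16 for miR-142-5p to 0.81 for miR-155, the latter not called (edgeR, unadjusted p = 0.0649). miR-146b (0.51), miR-142-3p (0.26) and miR-142-5p had an unadjusted p under 0.05 but a fold change below 1.5. Of all 385 tested, 14 had an unadjusted p under 0.05. Among low-RFI KC steers the 7 summed to between 5067 and 7127 CPM, against 4844 to 5316 CPM among the high-RFI ones. Their median log2 fold change in KC was 0.26, against 0.03 over all 385 tested. For Charolais the sum averaged 5155 ± 518 CPM among low-RFI steers against 5441 ± 643 CPM among high-RFI ones (SD, n = 6 each). The list median there was -0.003, against 0.003 over all tested. Angus averaged 5050 ± 241 against 4923 ± 381 CPM, with a list median of 0.04 against 0.009 over all tested. The part of leukocyte content in the miR-221 values was not tested.

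An exact two-sided permutation test of the mean log2 CPM over all relabelings of the 12 steers, whose smallest possible p is 0.00216, gave p = 0.864, 0.485 and 0.366 for miR-221 in Angus, Charolais and KC and p = 0.602, 0.320 and 0.983 for miR-222. Across the 36 steers with an RFI group and with breed as covariate, miR-221 differed by 0.10 (SE 0.08, interval -0.06 to 0.27) and miR-222 by 0.13 (SE 0.10, interval -0.07 to 0.32) on the log2 scale, with edgeR adjusted p = 0.978 for both. The upper bounds of these intervals correspond to a 1.20-fold higher level of miR-221 and a 1.25-fold higher level of miR-222 in low-RFI steers. Of 426 miRNAs 0 were called there (0%), with 13 at an unadjusted p under 0.05, and the same count of 0 came from edgeR's likelihood-ratio test and DESeq2. The difference between breeds in the RFI effect was not detected for either member (edgeR interaction, adjusted p = 0.994 for both), in a comparison that called 0 of 426 miRNAs (0%), with 16 at an unadjusted p under 0.05 and 1 called by the likelihood-ratio test and by DESeq2.

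**Figure D2:**
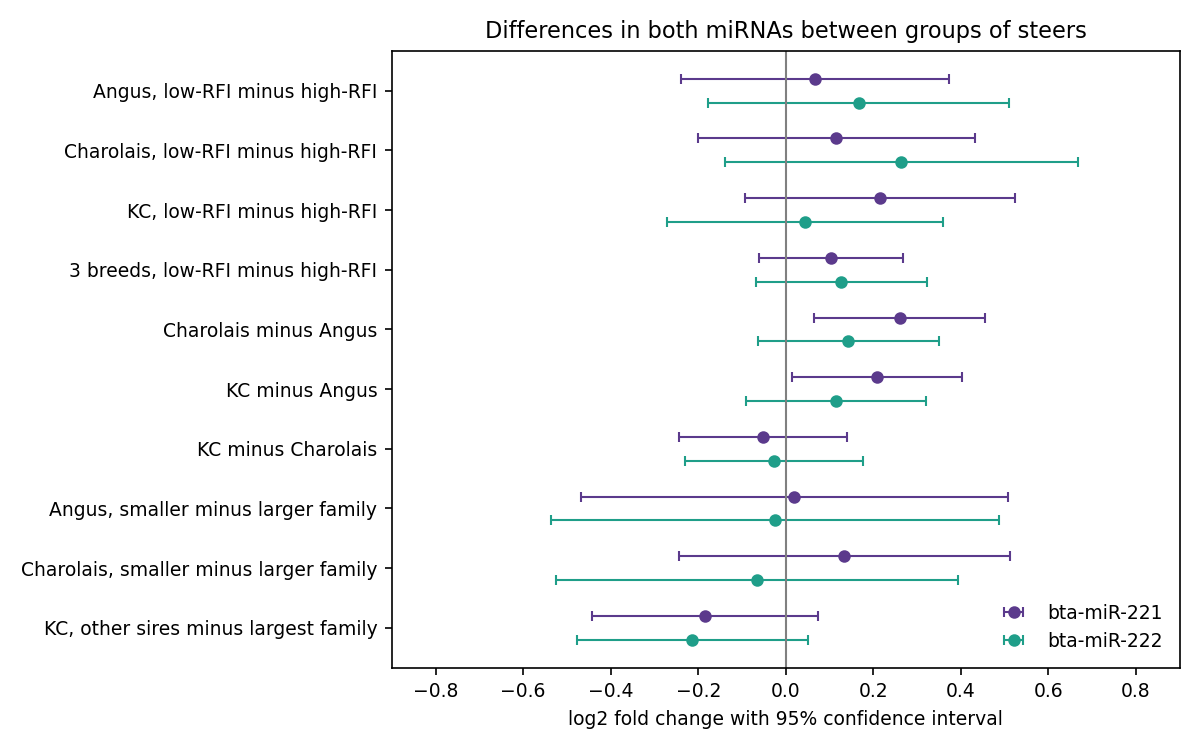
Log2 fold change (x axis) of bta-miR-221 in violet and bta-miR-222 in green for each comparison (y axis), with 95% confidence intervals from edgeR's quasi-likelihood fits. The interval lies off 0 only for miR-221 in Charolais minus Angus, at 0.26, and KC minus Angus, at 0.21, before adjustment over all miRNAs. With scaling to library totals alone, neither of these reached an unadjusted p under 0.05 in edgeR.

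The second comparison was between breeds, over all 20 steers of each. Its fit treated the steers as independent and took no account of shared sires. Angus had the lowest mean of miR-221, with a lowest, median and highest value of 22.3, 38.4 and 68.2 CPM. In Charolais the values were 32.2, 46.9 and 66.4 CPM, and in KC they were 34.1, 44.9 and 75.3 CPM. The mean was 40.6 ± 10.5 in Angus, 48.6 ± 9.28 in Charolais and 46.9 ± 10.1 CPM in KC (SD, n = 20 each), with ranges that overlapped over most of their length. Charolais minus Angus was 0.26 on the log2 scale (SE 0.10, interval 0.07 to 0.46, a 1.20-fold difference), with unadjusted p = 0.00968 and adjusted p = 0.119 by edgeR, and KC minus Angus was 0.21 (SE 0.10, interval 0.01 to 0.40), with unadjusted p = 0.0353 and adjusted p = 0.15. Neither passed the adjusted threshold of 0.05, which 10 of 425 miRNAs passed in Charolais against Angus (2.35%) and 55 in KC against Angus (12.9%). For KC against Charolais the miR-221 difference was -0.05 (interval -0.24 to 0.14, adjusted p = 0.788), in a comparison that called 71 of 425 (16.7%).

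The estimated breed differences were smaller for miR-222, but no breed difference was detected in the ratio of the members, given below. Its lowest, median and highest levels were 17.4, 26.8 and 43.9 CPM in Angus, 19.9, 30.8 and 45.2 CPM in Charolais and 20.7, 29.3 and 42.7 CPM in KC. The means of 27.6 ± 6.94, 30.5 ± 7.41 and 29.9 ± 5.77 CPM (SD, n = 20 each) stood in the same order as those of miR-221. Charolais minus Angus was 0.14 (SE 0.10, interval -0.06 to 0.35, adjusted p = 0.473), KC minus Angus 0.12 (SE 0.10, interval -0.09 to 0.32, adjusted p = 0.548) and KC minus Charolais -0.03 (interval -0.23 to 0.18, adjusted p = 0.890) on the log2 scale in edgeR. In the test of any breed difference, which called 83 of 425 miRNAs (19.5%), adjusted p was 0.0982 for miR-221 and 0.534 for miR-222.

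The 9 groups of breed and RFI label could be put in order by their means. For miR-221 the Charolais steers with no RFI group came first at 51.5 ± 11.6 CPM (SD, n = 8), followed by low-RFI KC at 49.8 ± 13.1 (n = 6), and the 3 Angus groups came last, down to high-RFI Angus at 38.8 ± 5.77 (n = 6). For miR-222 low-RFI Charolais came first at 32.2 ± 9.35 CPM (n = 6) and high-RFI Angus last at 25.2 ± 3.25 (n = 6). Each group differed from the next in the order by less than the smaller of the groups' SDs, for both members. Neighbours among 9 sorted means tend to lie close in any case, so this says nothing about groups farther apart in the order.

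Sires gave a further grouping of the labels. In Angus the larger sire family of 6 steers had miR-221 levels of 22.3 to 55.1 CPM (median 43.0) and the smaller family of 5 steers 34.2 to 68.2 CPM (median 38.1). miR-222 ranged from 17.6 to 36.4 CPM (median 25.2) in the larger family and from 17.4 to 43.9 CPM (median 24.9) in the smaller. The families overlapped, with smaller minus larger at 0.02 (interval -0.47 to 0.51) for miR-221 and -0.02 (interval -0.54 to 0.49) for miR-222 on the log2 scale (edgeR, adjusted p = 0.992 for both, 0 of 378 miRNAs called or 0%, with 26 at an unadjusted p under 0.05 and 0 called by DESeq2).

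In Charolais, miR-221 had levels of 36.6 to 63.2 CPM (median 50.7) in the larger sire family of 8 and of 46.3 to 66.4 CPM (median 55.0) in the smaller family of 4. The difference was 0.13 (interval -0.24 to 0.51, edgeR adjusted p = 0.850) for miR-221 and -0.07 (interval -0.53 to 0.39, adjusted p = 0.922) for miR-222, where 7 of 395 miRNAs were called (1.77%). In KC the 8 steers of the largest family had higher means than the 12 other steers. miR-221 stood at 51.0 ± 8.70 against 44.2 ± 10.4 CPM and miR-222 at 32.9 ± 6.23 against 27.9 ± 4.71 CPM (SD). Those 12 steers carried 10 other sire labels, 1 of which may mark an unknown sire. The ranges overlapped, at 45.2 to 71.9 against 34.1 to 75.3 CPM for miR-221 and 25.9 to 42.7 against 20.7 to 36 CPM for miR-222. Other sires minus the largest family gave -0.19 (interval -0.44 to 0.07) for miR-221 and -0.21 (interval -0.48 to 0.05) for miR-222, with adjusted p of 0.899 and 0.859 by edgeR in a comparison that called 1 of 391 (0.256%). The larger Charolais family held 1 low-RFI and 4 high-RFI steers, the smaller 2 and 0. In KC the largest family held 1 and 3, the other steers 5 and 3. The family fits had no term for RFI label, so the 2 were partly confounded.

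Since both members are thought to arise from one transcript, the balance between them was followed within each library, where depth and scaling cancel. miR-221 had more reads than miR-222 in 59 of 60 steers, with low-RFI Angus replicate 3 as the exception at 131 reads of miR-221 and 154 of miR-222. Ligation of adapters favours some sequences over others, so this ratio compares steers and is not a ratio of molecules in the cell. The geometric mean of the ratio came to 1.47 for Angus, 1.61 for Charolais and 1.56 for KC, and single steers ranged from 0.851 to 2.91. In log2 units the breeds differed by 0.13 for Charolais minus Angus, 0.09 for KC minus Angus and -0.04 for KC minus Charolais, with adjusted p of 0.553, 0.553 and 0.680 in two-sided permutation tests with 100000 resamples over 3 pairs.

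Between low-RFI and high-RFI steers the mean log2 ratio differed by -0.07 in Angus, -0.10 in Charolais and 0.15 in KC, with p of 0.818, 0.617 and 0.236 in exact permutation tests (adjusted 0.818, 0.818 and 0.708). Leaving out 1 steer moved these differences to between -0.24 and 0.087 in Angus, -0.21 and -0.011 in Charolais and 0.090 and 0.20 in KC. The spread of the ratio was not alike in the groups. In low-RFI Angus it ran from 0.851 to 2.62 with an SD of 0.62 in log2 units, whereas in high-RFI Angus it ran from 1.43 to 1.62 with an SD of 0.066, which is below the SD of 0.19 that counting error alone gives at these depths. The 6 high-RFI Angus steers lay inside the range of the low-RFI steers. In the other groups the SD lay between 0.20 and 0.37. This contrast in spread was picked out after the values had been seen and was not tested.

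**Figure D3:**
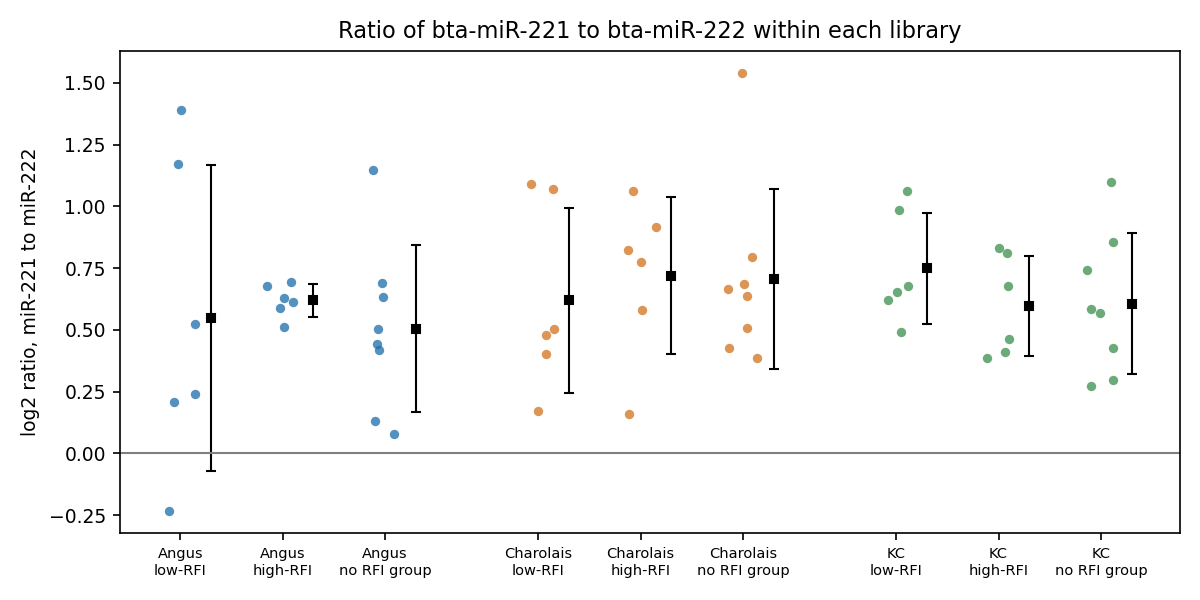
Log2 ratio of bta-miR-221 to bta-miR-222 reads (y axis) within each library, 1 point per steer in the 9 groups of breed and RFI label, with group mean ± SD in black and a grey line at equal reads. One low-RFI Angus steer lies below the line, and the high-RFI Angus steers lie within 1.43 to 1.62 as plain ratios.

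Across the steers of a breed the levels of the members were positively correlated, and the correlation passed the adjusted threshold in KC. Pearson's r of log2 CPM was 0.61 in KC (permutation p = 0.00366, adjusted over 3 breeds 0.011), 0.44 in Angus (p = 0.0532, adjusted 0.0644) and 0.42 in Charolais (p = 0.0644, adjusted 0.0644), each over 20 steers in a permutation test. Spearman's rho was 0.63 in KC (permutation p = 0.0038, adjusted 0.0114), 0.36 in Angus (p = 0.114, adjusted 0.126) and 0.35 in Charolais (p = 0.126, adjusted 0.126). Leaving out the 2 steers farthest from the median of miR-221 gave r = 0.49 in KC and 0.49 in Charolais but 0.13 in Angus, so that the Angus value rested on those steers. Both values of a steer come from one library, and with scaling to library totals alone the correlations were 0.64 in Angus, 0.67 in Charolais and 0.74 in KC.

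**Figure D4:**
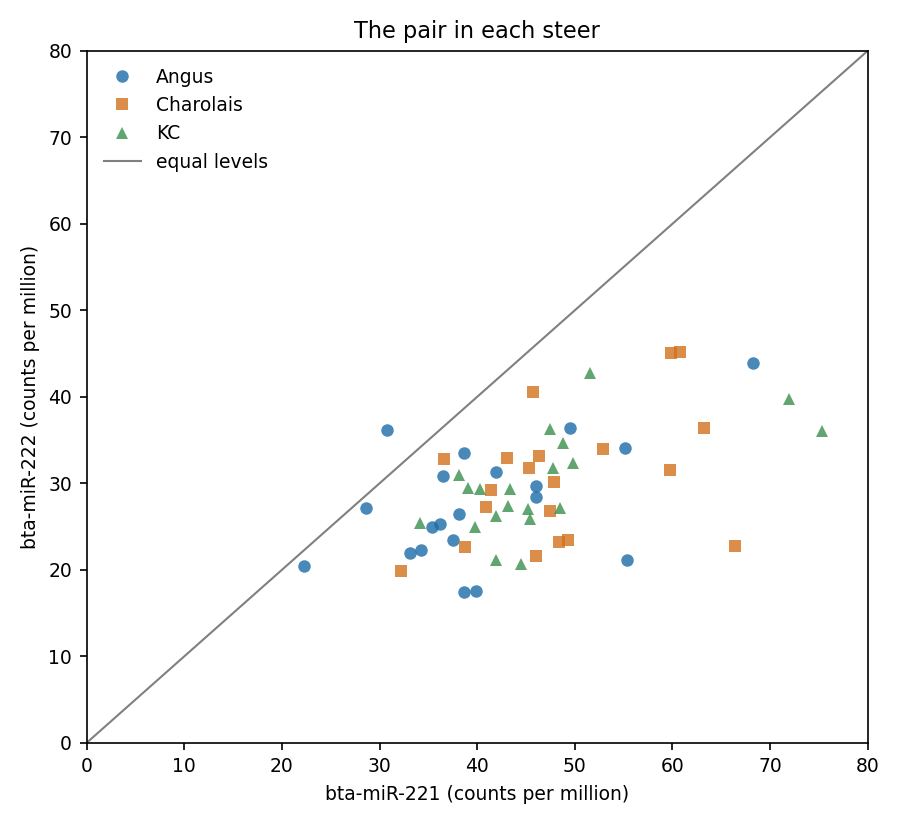
bta-miR-222 (y axis) against bta-miR-221 (x axis) in CPM, 1 point per steer with circles for Angus, squares for Charolais and triangles for KC, and a grey line of equal levels. All points but 1 lie below the line, and the Pearson correlation of the log2 values within breeds runs from 0.42 to 0.61.

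The miRNAs most like each member over the 60 steers were not the same. Likeness was measured by Spearman's rho on log2 CPM centred within breed, among 213 other miRNAs with a mean of at least 10 CPM. For miR-221 the highest values were those of miR-155 (rho = 0.51), a miRNA of activated lymphocytes and macrophages, miR-21-5p (0.44), which is widely induced in growth and fibrosis, miR-222 itself (0.44), miR-21-3p (0.43), the other arm of the miR-21 hairpin, and miR-652 (0.38). For miR-222 they were miR-92b (0.68), miR-423-5p (0.63) and miR-423-3p (0.60), both arms of one hairpin, miR-296-3p (0.54) and miR-6529a (0.52). The lists of 5 had 0 miRNAs in common, and miR-221 was not among the 5 of miR-222. Still, miR-155 and miR-21-5p each had a rho of 0.32 with miR-222, at places 21 and 26 of 213. At the foot, miR-10a and miR-24-3p were among the 5 miRNAs least like either member. Over all 213 miRNAs rho had a median of -0.01 for miR-221 (range -0.39 to 0.51) and of -0.03 for miR-222 (range -0.66 to 0.68).

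The sequences of the miRNA at the head of each list and of the one at the foot of the miR-222 list, again with bases 2 to 8 in capitals, show that none carries the seed of the pair.

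bta-miR-155: uUAAUGCUaaucgugauaggggu
bta-miR-92b: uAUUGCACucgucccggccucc
bta-miR-24-3p: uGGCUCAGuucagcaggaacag

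The correlations share library, depth and, in part, base composition. G and C made up 56.5% to 68.2% of the bases of the 5 miRNAs most like miR-222, against a median of 45.5% over the 213 and 52.4% in miR-222, and 37.5% to 57.1% in the 5 most like miR-221. The 5 miRNAs least like miR-222 had 39.1% to 77.3% G and C, with a median of 52.2%, and over all 213 miRNAs the likeness had a rho with G and C content of 0.27 for miR-222 and of 0.12 for miR-221. At the other end miR-24-3p, with 54.5% G and C, had a rho of -0.66 with miR-222 and of -0.31 with miR-221, a feature chosen after its values were seen. Within breeds miR-222 had a rho of 0.50 with the TMM scaling factor and of -0.38 with the log2 library total, and miR-221 of 0.27 and -0.24. The part of depth and composition in the likeness was not tested.

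Lists of miRNAs known from cell types that liver samples hold were set beside the members. The 7 leukocyte miRNAs had a median rho of 0.28 with miR-221, 5 of them above 0 and miR-155 highest, and of 0.20 with miR-222, 4 of them above 0. Over all 213 miRNAs compared, 111 had a rho below 0 with miR-221 and 119 with miR-222. The 4 hepatocyte miRNAs, among them miR-122, the classic liver miRNA, were all below 0 with both members, at -0.21 to -0.07 for miR-221 and -0.20 to -0.002 for miR-222. The endothelial miR-126 arms, from cells in which the pair is known to be expressed, had rho of 0.12 (miR-126-3p) and -0.07 (miR-126-5p) with miR-221 and of 0.13 and -0.11 with miR-222.

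Of the 6 stellate or mesenchymal miRNAs, miR-145 had a rho of 0.06 with miR-221 and of -0.53 with miR-222, and miR-143, its cluster partner, had -0.21 and -0.45. miR-214 had 0.23 and -0.17, miR-199a-3p 0.13 and 0.32, miR-199b 0.04 and 0.08, and miR-199a-5p -0.02 and -0.05, and no difference between the members was tested here. The medians of this list were 0.05 for miR-221 and -0.11 for miR-222. The 16 growth and fibrosis miRNAs, of which 15 reached 10 CPM, had a median of 0.06 with miR-221 and of -0.002 with miR-222, while the 3 erythroid miRNAs had -0.07 and -0.28 and 4 biliary miRNAs 0.11 and 0.07.

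**Figure D5:**
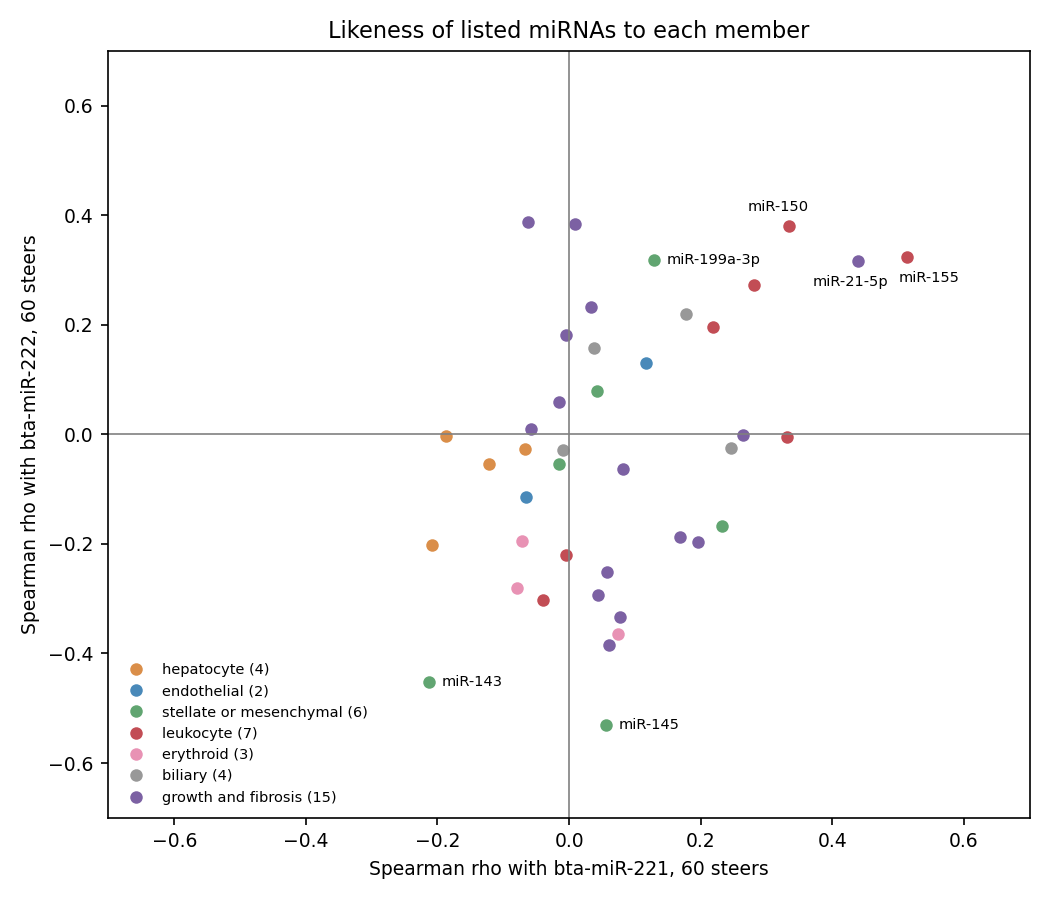
Spearman's rho over 60 steers with bta-miR-221 (x axis) and bta-miR-222 (y axis) for 41 listed miRNAs, 1 point each, coloured by list, on log2 CPM centred within breed. miR-155 lies farthest to the right at 0.51, and miR-145 and miR-143 lie lowest at -0.53 and -0.45.

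As a check of the liver label, the 4 hepatocyte miRNAs summed to a mean of 238478 to 254142 CPM in the 3 breeds. The 6 stellate or mesenchymal ones summed to 167713 to 180221 CPM, the 2 endothelial arms to 17011 to 17285 CPM and the 7 leukocyte ones to 4963 to 5423 CPM. Over the 60 steers miR-192 alone averaged 234576 CPM, against 8139 CPM for miR-122, 1893 CPM for miR-194 and 37.0 CPM for miR-885. miR-143 averaged 172133 CPM, miR-126-5p 15379 CPM and miR-142-5p 3455 CPM, so each of these sums came mainly from a single miRNA. Of the other leukocyte miRNAs, miR-155 averaged 76.9 CPM and miR-223 30.3 CPM. Beside the miR-221 levels of the breeds, the summed leukocyte miRNAs had means of 4963 ± 393 in Angus, 5423 ± 613 in Charolais and 5337 ± 591 CPM in KC (SD, n = 20 each), with ranges of 4115 to 5816, 4629 to 6503 and 4059 to 7127 CPM. In KC against Angus 2 of the 7 were called higher, miR-155 at 0.46 (adjusted p = 0.0215) and miR-146a at 0.27 (adjusted p = 0.0332) on the log2 scale by edgeR, and the list's median was 0.19 against -0.01 over all 425 tested, of which 12.9% were called. In Charolais against Angus 0 of the 7 were called, with a median of 0.18 against 0.001 over all tested, of which 2.35% were called. The hepatocyte list had medians of 0.22 in Charolais and 0.12 in KC against Angus, with 0 of 4 called in the former and 1 of 4 in the latter, miR-885 at 0.55 (adjusted p = 0.000291). With 0 called in either, the medians were -0.27 and -0.12 for the erythroid, 0.15 and -0.03 for the biliary and 0.06 and 0.08 for the stellate or mesenchymal list. For the endothelial pair the medians were 0.04 and 0.01 with 0 of 2 called, and for the growth and fibrosis list -0.01 and -0.03 with 0 of 16 called, in Charolais and in KC against Angus. The part of cell makeup in the miR-221 levels was not tested.

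In the comparison of RFI across breeds 0 miRNAs of any list were called. The list medians were 0.13 for the erythroid, 0.08 for the leukocyte, 0.009 for the hepatocyte, -0.07 for the biliary, -0.03 for the endothelial, -0.08 for the stellate or mesenchymal and 0.003 for the growth and fibrosis miRNAs, against -0.02 over all 426 tested, beside 0.10 for miR-221 and 0.13 for miR-222.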

How the data were processed

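Liver small RNA was sequenced from 60 steers. The authors clipped adapters with cutadapt 1.16, checked reads with FastQC 0.11.7, aligned them with Bowtie 1.1.1 to UMD3.1 and assigned them to known miRNAs with miRDeep2, and the deposited values are raw read counts per mature miRNA and precursor, 1 file per steer. Counts were averaged over precursors, as in the study, and then rounded. Levels are CPM with TMM factors over 60 libraries (log2 values with a prior count of 0.5), while each fit scaled its own steers. edgeR 4.0.16 in R 4.3.3 (quasi-likelihood F test, glmQLFit) was fitted on all known miRNAs reaching 1 CPM in 6 or more steers (10 of 60 for breeds, the size of the smaller family for sires), and p-values were adjusted by Benjamini-Hochberg over all tested miRNAs. Within breeds a call was an unadjusted p under 0.05 with a fold change above 1.5, and elsewhere an adjusted p under 0.05. DESeq2 1.42.0, limma 3.58.1, scipy 1.17.1, numpy 2.4.6, pandas 2.3.3 and matplotlib 3.10.9 were also used. The fits were tested on simulated data with 200 changed miRNAs.

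Groups, breeds and sires came from the labels, which give no sequencing batch. Reads carry no molecular identifiers, so floors and counting errors cover counting only. The names given are the members, the 5 miRNAs most like each by rho and 7 lists of 43 miRNAs. Members and lists were chosen with earlier results of these data known. Sequences were taken from the study's list of known miRNAs. Coordinates are not given, because the gene table used here is of another assembly than the files.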

Additional observations from a re-analysis of the deposited data

Results flagged for a closer look

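In 5 of 27 groups of 6 or 8 steers (levels of both members and their log2 ratio in 9 groups) 1 steer stood apart from the rest by Dixon's criterion at the 95% level, where chance flags about 1 in 20 groups. miR-221 stood apart in low-RFI Angus replicate 1, at 55.3 CPM against 39.9 CPM in the next steer, in low-RFI KC replicate 5, at 75.3 CPM against 49.8 CPM, and in replicate 5 of the KC steers with no RFI group, at 71.9 CPM against 51.6 CPM. miR-222 stood apart in high-RFI KC replicate 3, at 36.3 CPM against 29.4 CPM. The log2 ratio of miR-221 to miR-222 stood apart in replicate 7 of the Charolais steers with no RFI group, at 1.54 against 0.80. All of these were the highest value of their group.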

How the results depend on the processing

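Neither member changed its call in 126 results refitted without 1 steer, of which 11 changed sign, and in 226 results under other alternatives 10 changed sign and 5 newly passed a threshold. Values below are log2 fold changes unless named otherwise. Leaving out 1 steer gave -0.082 to 0.13 for miR-221 and 0.08 to 0.24 for miR-222 by RFI in Angus, 0.056 to 0.22 and 0.18 to 0.35 in Charolais, 0.053 to 0.26 for miR-221 in KC, and -0.032 to 0.12 for miR-222 by RFI in KC. Among sire families it gave -0.20 to 0.12 for miR-221 and -0.26 to 0.12 for miR-222 in Angus and -0.30 to 0.041 for miR-222 in Charolais, and for the log2 ratio by RFI in Angus -0.24 to 0.087. With sire as a block miR-222 by RFI was -0.14 in Angus and 0.73 in Charolais, where the block left 6 residual degrees of freedom and 1 low-RFI steer in the only sire family with both labels, and miR-221 there was 0.43. KC minus Charolais turned positive for miR-221 with library totals alone (0.021), thinning to equal depth (0.024) and the 36 steers with RFI group as covariate (0.051), and for miR-222 with library totals (0.027), without pairs listed only for KC (0.0010) and with the 36 steers (0.031), and the log2 ratio turned to 0.058 after thinning. With library totals alone miR-221 was -0.0021 between Angus and -0.019 between Charolais families. The correlation passed p = 0.05 in Angus with library totals (r = 0.64) and in Charolais with library totals (0.67), DESeq2 size factors (0.45) and without the 2 farthest steers (0.49). No paired analysis was possible because replicate numbers were given within each group and tie no steers together.

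Counts of called miRNAs ran from 1 to 20 around 9 by RFI in Angus, from 1 to 48 around 7 in Charolais (48 with the sire block), from 3 to 15 around 7 in KC, from 48 to 93 around 83 for any breed difference, from 1 to 14 around 10 in Charolais against Angus, from 24 to 58 around 55 in KC against Angus, from 44 to 79 around 71 in KC against Charolais, from 0 to 10 around 7 in Charolais families and from 0 to 1 around 1 in the KC family. Counting error averaged 7.52% for miR-221 and 9.34% for miR-222, below the spread between steers of 20.4% and 21.0%.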
